A study of Homo sapiens with 6 samples.

Results

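RAB small GTPases are the largest branch of the RAS superfamily in human cells, and the 62 RAB genes described here are those of 19240 genes in a deposited count table whose official symbol is RAB, a number and at most 1 letter. They were measured in the human lung carcinoma line A549, obtained from ATCC, in 3 libraries after 48 h in the absence of glucose and 3 libraries after the same time with 25 mM glucose, by sequencing transcripts from their 3′ ends. The labels name no other treatment or genetic change in either group. The study concerns PCK2, a mitochondrial enzyme that makes phosphoenolpyruvate, and tumor cell growth that does not depend on glucose. Each member was placed in 1 of 4 compartments by the site for which its protein is best known, which gave 26 secretory, 16 endosomal and 9 lysosomal genes and 11 others; many RABs act at several sites. RAB7B and RAB1C carry symbols of the same form and were not analysed here.

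A RAB protein switches between a GDP-bound form held in the cytosol and a GTP-bound form anchored in a membrane by lipid groups at its C-terminus. Exchange factors load GTP, GTPase-activating proteins end the active state, and effectors (motors, tethers and kinases) act while it lasts, so each RAB marks a membrane and directs the vesicles that leave or reach it. In lung epithelial cells RABs serve the secretion of proteins, the uptake and return of receptors and nutrient carriers, and delivery to lysosomes.

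Gene counts per library were 11086416, 12782563 and 14060313 without glucose, against 6701004, 10323290 and 14259943 with glucose, and RAB genes took 0.308% to 0.320% of them without glucose and 0.309% to 0.323% with it. Levels are CPM, counts scaled to a common library size after TMM scaling. Of the epithelial markers, KRT8 stood at 716 to 1055 CPM without glucose and 1862 to 2442 CPM with glucose (here by library totals), and KRT18 and KRT19 were likewise lower in each library without glucose. CDH1 stood at 7.25 to 8.14 CPM without glucose and 4.56 to 6.86 CPM with glucose, and EPCAM overlapped, with 2.44 to 4.15 CPM without glucose and 2.69 to 5.61 CPM with glucose. Of the alveolar type II markers, SFTPC and SFTPA1 were at 0, NKX2-1 had 3 counts and ABCA3 stood at 19.7 to 23.0 CPM without glucose and 14.2 to 16.1 CPM with glucose. LAMP3, of the same list, stood at 6.90 to 7.40 CPM without glucose and at 0 to 0.0701 CPM with glucose. Of the markers of other cell types, CD3E of leukocytes, COL1A2 and DCN of fibroblasts and VWF of endothelium were at 0 in all libraries. CD68 of the leukocyte list stood at 24.0 to 40.1 CPM without glucose and 14.1 to 16.7 CPM with glucose, and COL1A1 of the fibroblast list at 4.30 to 5.19 CPM without glucose and 11.3 to 14.2 CPM with glucose. LUM had 55 counts over the 6 libraries, and PTPRC, PDGFRB, PECAM1 and CDH5 had 2 to 15. The part of these markers in the results was not tested. Whether replicate libraries stem from separate cultures is not stated, and the p-values then describe only how far these libraries spread, possibly for technical reasons. In bulk RNA a lower level per cell and fewer cells with the transcript cannot be told apart.

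Without glucose, 5 RAB genes rose and 4 fell of the 48 that had enough counts to be tested. RAB39B rose 10.3-fold and RAB22A 2.01-fold, and RAB26 fell, with a mean of 2.01 CPM without glucose, against 7.69 CPM with glucose. The other 6 changes were smaller, and 4 of the 6 were opposite moves inside 2 small subfamilies: RAB1A rose while RAB1B fell, and RAB5A rose while RAB5C fell. The RAB1A and RAB5A calls were each lost under 10 of 12 alternative settings, those of RAB1B and RAB5C under 3 and 4. The calls come from edgeR's quasi-likelihood test over all 11886 genes tested, with a Benjamini-Hochberg adjusted p under 0.05. The share of RAB genes that changed, 18.8%, was no higher than the 22.3% of all genes tested, and by direction it was 10.4% higher and 8.33% lower, against 11.6% and 10.7% of all genes. At an unadjusted p under 0.05, 14 of the 48 were higher and 7 lower, against 19.4% and 17.1% of all genes tested, and DESeq2 called 5 higher and 6 lower, against 13.0% and 13.3%. The CPM of the groups did not overlap for 21 of the 48 RAB genes, or 43.8%, against 40.4% of all genes tested. Leaving out glucose-free replicate 3, or replicate 3 with glucose, kept 4 of the 9 calls in each case. Leaving out glucose-free replicate 1 kept 3 of the 9 and gained RAB8A.

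**Figure D1:**
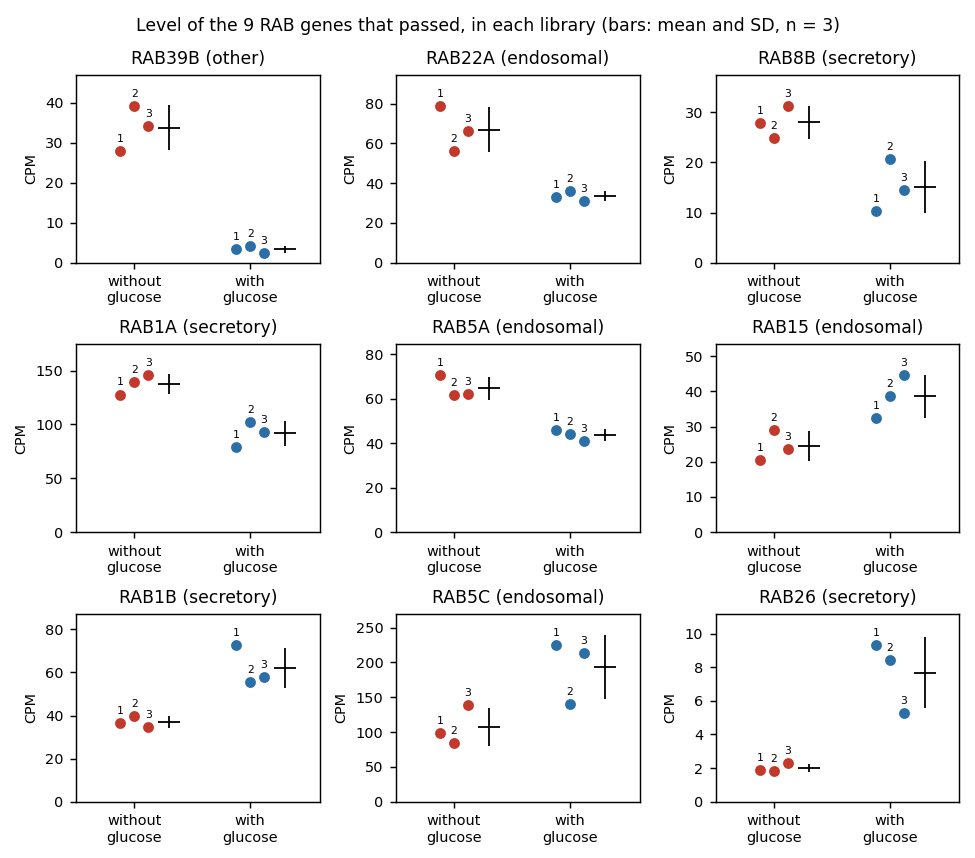
Level of the 9 RAB genes that passed the test. The vertical axes give CPM from 0 and each point is 1 library, numbered by replicate, with libraries without glucose in red on the left and libraries with glucose in blue on the right; bars give the mean and SD (n = 3 per group). In each panel the groups do not overlap, and RAB39B has the widest gap, with 28.0 to 39.3 CPM without glucose and 2.39 to 4.13 CPM with glucose.

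RAB39B (Entrez 116442, chromosome X), a RAB of neurons that moves receptor subunits from the endoplasmic reticulum to the Golgi in mouse and whose loss causes X-linked intellectual disability with parkinsonism, changed most. It had 28.0, 39.3 and 34.2 CPM without glucose, from 295, 513 and 464 counts, against 3.39, 4.13 and 2.39 CPM with glucose, from 24, 43 and 34 counts. All 3 libraries without glucose stood far above all 3 with glucose. The means were 33.8 ± 5.65 and 3.30 ± 0.872 CPM (SD, n = 3 each), a log2 fold change of 3.37 ± 0.27 (SE) with an adjusted p of 2.72e-05 by edgeR. RAB39A, its closest relative, had 20 counts in all libraries without glucose and 16 with glucose and was too low to test. RAB39B was counted among the other RABs, although the route named above would also place it in the secretory group. The counts and ranges given below for these 2 groups depend on that placement.

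RAB22A (Entrez 57403, chromosome 20), which acts on early endosomes and returns cargo to the plasma membrane, had 78.9, 56.0 and 66.1 CPM without glucose, against 32.9, 36.0 and 31.2 CPM with glucose. The groups were well apart, with the lowest library without glucose above the highest with it. Its log2 fold change was 1.01 ± 0.20 (SE, edgeR adjusted p = 0.00458). RAB31, the nearest paralog, which works between the Golgi and endosomes, had 92.6, 69.5 and 109 CPM without glucose and 70.1, 59.9 and 61.1 CPM with glucose, and did not pass (log2 fold change 0.51 ± 0.22, edgeR adjusted p = 0.110). The window of 250 bases before and 50 after the start of RAB22A, from RefSeq on GRCh38.p14 (chr20:58309465-58309764, plus strand), is shown for its tandem repeat. A unit of 20 bases, in capitals at its first occurrence, stands there in 8 whole copies, over 162 of the 300 bases.
RAB22A: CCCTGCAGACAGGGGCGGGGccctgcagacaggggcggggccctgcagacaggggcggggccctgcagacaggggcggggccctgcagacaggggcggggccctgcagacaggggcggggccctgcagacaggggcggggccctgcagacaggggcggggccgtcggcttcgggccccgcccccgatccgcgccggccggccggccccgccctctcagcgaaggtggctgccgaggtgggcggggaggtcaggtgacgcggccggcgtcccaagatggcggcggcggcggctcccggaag

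RAB26 (Entrez 25837, chromosome 16), a RAB of secretory granules, changed most among the genes that fell. It had 1.90, 1.84 and 2.28 CPM without glucose, against 9.33, 8.45 and 5.28 CPM with glucose. The libraries without glucose lay close together and below all 3 with glucose, which spread more widely. The means were 2.01 ± 0.242 and 7.69 ± 2.13 CPM (SD, n = 3 each), and the log2 fold change was −1.92 ± 0.34 (SE, edgeR adjusted p = 0.00219). RAB39B, RAB22A and RAB26 were the 3 members that passed under each of the 12 alternatives tried, with log2 fold changes of 3.15 to 3.58, 0.87 to 1.10 and −2.14 to −1.76. None of the 3 overlaps another gene in the GENCODE release 29 annotation.

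Of the secretory group, which carries cargo from the endoplasmic reticulum through the Golgi to the cell surface, 2 of 19 tested members rose and 2 fell. That was 10.5% in each direction, near the 11.6% higher and 10.7% lower of all genes tested. RAB1A and RAB1B both drive transport from the endoplasmic reticulum to the Golgi, and moved in opposite directions. RAB1A (Entrez 5861) had 128, 140 and 145 CPM without glucose, against 79.4, 102 and 93.3 CPM with glucose. RAB1B (Entrez 81876) had 36.6, 39.8 and 34.6 CPM without glucose, against 72.8, 55.5 and 57.8 CPM with glucose. The groups did not overlap for either gene, with RAB1A higher and RAB1B lower in each library without glucose. Log2 fold changes were 0.59 ± 0.19 for RAB1A (edgeR adjusted p = 0.0474) and −0.74 ± 0.20 for RAB1B (edgeR adjusted p = 0.0189). RAB1A passed by a small margin and was lost on leaving out any single library (edgeR adjusted p from 0.0666 to 0.145). RAB1B was lost without glucose-free replicate 1 or 3 (edgeR adjusted p = 0.0504 and 0.0722). CEP68 lies over RAB1A on the other strand and had a log2 fold change of 0.25 ± 0.22, and whether the counting used strand is not known from the sources used here.

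The difference between the RAB1 paralogs was tested as the log2 ratio of their counts within a library. The ratio of RAB1A to RAB1B was 1.80, 1.81 and 2.07 without glucose and 0.13, 0.88 and 0.69 with glucose, a difference of 1.33 or a 2.51-fold shift toward RAB1A. The groups did not overlap and the exact permutation test gave p = 0.1 (two-sided), the smallest that 3 against 3 libraries allow. Both outcomes were fixed by the single genes, which separated the groups in opposite directions, so the ratio adds no further support. Over the 17 paralog pairs compared the adjusted p was 0.243, so no pair could pass. The groups did not overlap in 7 of the 17 pairs, against 40.4% of single genes. For RAB1A/RAB1B, RAB5A/RAB5C and RAB4A/RAB4B the lack of overlap followed from the single genes.

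RAB8B (Entrez 51762), which carries vesicles to the plasma membrane, had 27.9, 24.8 and 31.3 CPM without glucose, against 10.3, 20.7 and 14.4 CPM with glucose. It rose in all 3 libraries without glucose relative to all 3 with glucose (log2 fold change 0.88 ± 0.25, edgeR adjusted p = 0.0274). The call was lost without glucose-free replicate 1 or 3 (edgeR adjusted p = 0.0590 and 0.107) and without replicate 1 or 3 with glucose (0.0619 and 0.0886). Its paralog RAB8A had 151, 50.2 and 56.2 CPM without glucose, against 108, 124 and 139 CPM with glucose. Replicate 1 without glucose stood above every other library of RAB8A, and replicates 2 and 3 stood below all 3 with glucose. RAB8A did not pass (log2 fold change −0.53 ± 0.35, edgeR adjusted p = 0.305), but without that library it fell, with a log2 fold change of −1.22 and an adjusted p of 0.00587. The same library stood out for RAB3D, which acts in regulated exocytosis, with 37.6 CPM against 11.6 and 12.4 CPM in replicates 2 and 3 without glucose and 16.9 to 27.1 CPM with glucose. Within libraries the log2 ratio of RAB8A to RAB8B was 2.43, 1.02 and 0.84 without glucose and 3.38, 2.58 and 3.27 with glucose, a difference of −1.64 (exact permutation p = 0.1, two-sided).

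The remaining 15 secretory members tested did not pass. Of these, RAB27B, which docks granules and exosome precursors at the plasma membrane, had 33.0, 28.3 and 32.9 CPM without glucose and 16.8, 24.5 and 25.4 CPM with glucose, with no overlap (log2 fold change 0.49 ± 0.21, edgeR adjusted p = 0.120). The secretory log2 fold changes ran from −1.92 to 0.88, with 9 above and 10 below 0, and their median was −0.0026, against 0.023 for all genes tested. RAB10, which brings glucose transporter vesicles to the surface of fat cells, had 381, 435 and 338 CPM without glucose and 266, 607 and 379 CPM with glucose, so the groups overlapped (edgeR adjusted p = 0.790). Summed over the group, secretory RAB transcripts came to 1403, 1373 and 1221 CPM without glucose and 1206, 1625 and 1390 CPM with glucose, with no separation.

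**Figure D2:**
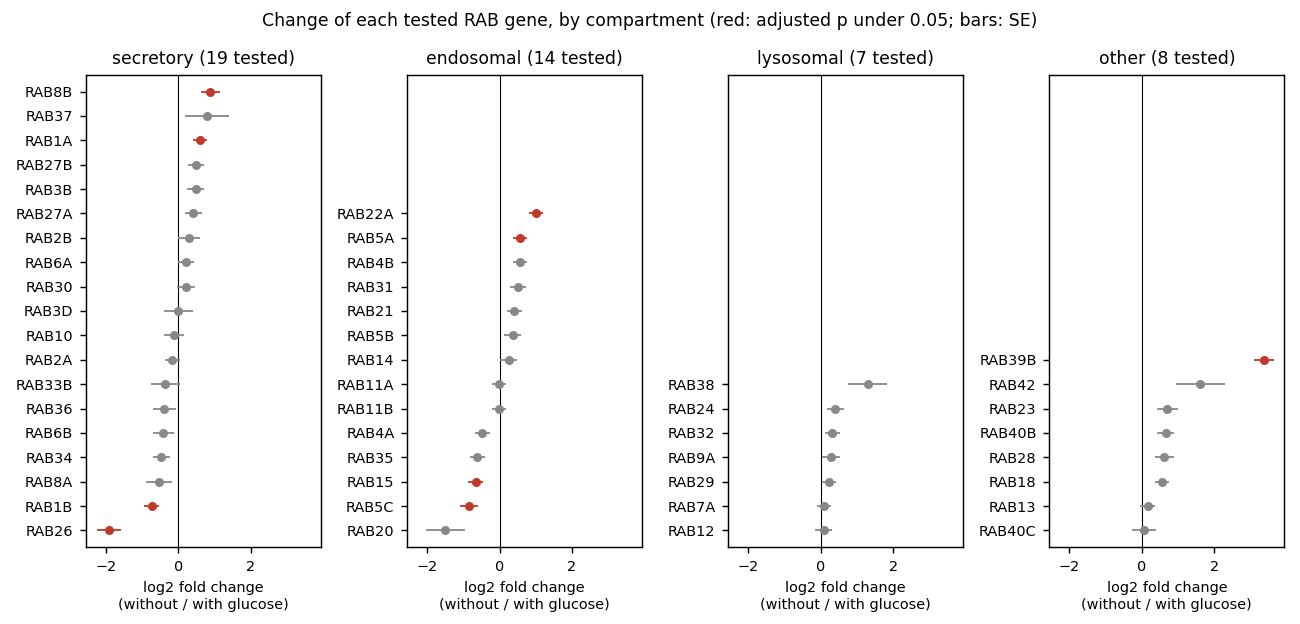
Log2 fold change (without over with glucose) of the 48 RAB genes tested, by compartment, 1 row per gene; bars are SE and red marks an edgeR adjusted p under 0.05. Secretory and endosomal genes lie on both sides of 0, while the 7 lysosomal and 8 other genes lie above it, as did 51.5% of all genes tested. RAB39B stands at 3.37. RAB40C was below 0 with library totals as scaling and without glucose-free replicate 1 or replicate 2 with glucose. RAB12 was below 0 without glucose-free replicate 3 or replicate 1 with glucose.

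Of the endosomal group, which sorts cargo after uptake and sends it back or onward, 2 of 14 tested members rose and 2 fell. That was 14.3% in each direction, against 11.6% higher and 10.7% lower of all genes tested. RAB22A is described above, and RAB5A, RAB5C and RAB15 were the other members that passed. The RAB5 proteins share the task of fusing incoming vesicles with early endosomes. RAB5A (Entrez 5868) had 70.6, 61.6 and 62.0 CPM without glucose, against 46.1, 44.0 and 40.9 CPM with glucose. RAB5C (Entrez 5878) had 98.8, 84.7 and 138 CPM without glucose, against 225, 140 and 214 CPM with glucose. RAB5A was thus higher and RAB5C lower in each library without glucose, although replicate 3 without glucose and replicate 2 with glucose were almost level for RAB5C. Log2 fold changes were 0.57 ± 0.19 for RAB5A (edgeR adjusted p = 0.0475) and −0.85 ± 0.25 for RAB5C (edgeR adjusted p = 0.0293). RAB5A had the highest adjusted p of the members that passed, and it was lost on leaving out any single library (edgeR adjusted p from 0.0522 to 0.152). RAB5C was lost without glucose-free replicate 1 or 2 (edgeR adjusted p = 0.0876 and 0.0864) and without replicate 1 or 3 with glucose (0.0718 and 0.0961). RAB5B had 43.2, 54.8 and 37.4 CPM without glucose and 43.8, 29.1 and 32.8 CPM with glucose, overlapping groups that did not pass (edgeR adjusted p = 0.275).

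Within libraries the log2 ratio of RAB5A to RAB5C was −0.49, −0.46 and −1.16 without glucose and −2.29, −1.67 and −2.39 with glucose. The groups did not overlap, a 2.67-fold shift toward RAB5A (difference 1.41, exact permutation p = 0.1, two-sided). As for RAB1, this separation was fixed by the values of the single genes and adds no further support. The ratio of RAB5B to RAB5C differed by 1.21 with no overlap (exact permutation p = 0.1), and that of RAB5A to RAB5B by 0.21 with overlap (exact permutation p = 0.5). Both ratios to RAB5C thus separated the groups, and the ratio without RAB5C did not.

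The start regions of the RAB5A and RAB5C genes are shown because these paralogs moved in opposite directions. Both windows come from RefSeq on GRCh38.p14, 250 bases before to 50 after the start, at chr3:19946847-19947146 on the plus strand for RAB5A and chr17:42154940-42155239 on the minus strand for RAB5C. Capitals mark TCACGTGA, the E-box of the lysosomal CLEAR network, and CCACG, a box of endoplasmic reticulum stress elements that reads CGTGG on the other strand. RAB5A holds the E-box at bases 129 to 136 of its window and the CCACG box, on the other strand, at bases 58 to 62 and 270 to 274, with no overlap between them. RAB5C holds neither.
RAB5A: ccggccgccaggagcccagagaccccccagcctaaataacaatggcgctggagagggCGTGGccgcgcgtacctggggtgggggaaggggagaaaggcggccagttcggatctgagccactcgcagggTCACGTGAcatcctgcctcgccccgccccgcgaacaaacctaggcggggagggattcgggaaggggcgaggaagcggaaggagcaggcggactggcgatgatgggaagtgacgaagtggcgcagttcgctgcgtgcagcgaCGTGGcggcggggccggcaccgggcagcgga
RAB5C: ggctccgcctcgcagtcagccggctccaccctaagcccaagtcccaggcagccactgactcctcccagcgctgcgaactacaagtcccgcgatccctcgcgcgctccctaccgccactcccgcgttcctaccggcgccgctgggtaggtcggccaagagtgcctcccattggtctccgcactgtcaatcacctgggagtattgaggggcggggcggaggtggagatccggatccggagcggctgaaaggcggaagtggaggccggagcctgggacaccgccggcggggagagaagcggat

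Start windows in that RefSeq table were matched for 49 RAB genes, and each motif was searched on both strands. The E-box TCACGTGA was in 2 of the 49, RAB5A and RAB21, or 4.08%, against 1.04% of 27305 windows of all genes and 2.04% of 9805 windows of the genes tested, whose base composition was closer (median GC 65.0% for RAB windows, 65.7% for genes tested and 58.3% for all). CCACG was in 13, or 26.5%, against 37.9% of all windows and 50.6% of those tested. TGATGNAA, the element bound by C/EBP and ATF factors, was in 1, that of RAB28, or 2.04%, against 3.67% of all windows and 1.59% of those tested. TGACGTGG, the core of the unfolded protein response element, and the full stress element, in which CCAAT and CCACG are 9 bases apart, were in none of the 49 and in 0.795% and 0.0806% of all windows (0.938% and 0.143% of those tested). RAB21, an endosomal RAB of integrin traffic, did not pass (log2 fold change 0.41, edgeR adjusted p = 0.199).

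RAB15 (Entrez 376267), which slows the passage of receptors through early and recycling endosomes, had 20.6, 29.0 and 23.6 CPM without glucose, against 32.4, 38.8 and 44.5 CPM with glucose. It fell, with no overlap between the groups (log2 fold change −0.66 ± 0.21, edgeR adjusted p = 0.0420). The call was lost without glucose-free replicate 1 or 3 (edgeR adjusted p = 0.126 and 0.128) and without replicate 2 or 3 with glucose (0.0998 and 0.154).

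Just outside the threshold stood RAB35, which returns cargo from endosomes to the plasma membrane, with 18.5, 23.4 and 25.3 CPM without glucose and 40.0, 31.4 and 31.9 CPM with glucose. Its groups did not overlap (log2 fold change −0.62 ± 0.21, edgeR adjusted p = 0.0516), and it passed with both other scalings and in DESeq2 (adjusted p = 0.0344). It did not pass with either other filter, with the replicate block or without any single library (edgeR adjusted p from 0.0503 to 0.146). The RAB4 paralogs, of the fast recycling route, differed in sign without passing. RAB4B had 27.2, 35.1 and 30.2 CPM without glucose and 19.2, 21.5 and 22.0 CPM with glucose (log2 fold change 0.56 ± 0.20, edgeR adjusted p = 0.0609). RAB4A had 26.7, 33.0 and 24.2 CPM without glucose and 34.5, 38.2 and 44.0 CPM with glucose (log2 fold change −0.48 ± 0.20, edgeR adjusted p = 0.111). Within libraries the log2 ratio of RAB4A to RAB4B was −0.03, −0.09 and −0.32 without glucose and 0.84, 0.83 and 0.997 with glucose, tight groups 1.03 apart (exact permutation p = 0.1, two-sided). That separation, too, followed from the single genes, neither of which overlapped between the groups.

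RAB20, which acts in phagosome maturation, had 0.854, 0.995 and 0.442 CPM without glucose and 2.40, 2.69 and 1.48 CPM with glucose. Its groups did not overlap but it did not pass at these low counts (log2 fold change −1.50 ± 0.54, edgeR adjusted p = 0.0647; 0.0423 in DESeq2). RAB11A and RAB11B, which govern the slow recycling endosome, overlapped throughout, with log2 fold changes of −0.01 and −0.02, and their ratio differed by 0.01 (exact permutation p = 0.9). The endosomal log2 fold changes ran from −1.50 to 1.01, with 7 above and 7 below 0 and a median of 0.12. Summed endosomal RAB transcripts came to 1087, 1003 and 1039 CPM without glucose and 1120, 892 and 1007 CPM with glucose.

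**Figure D3:**
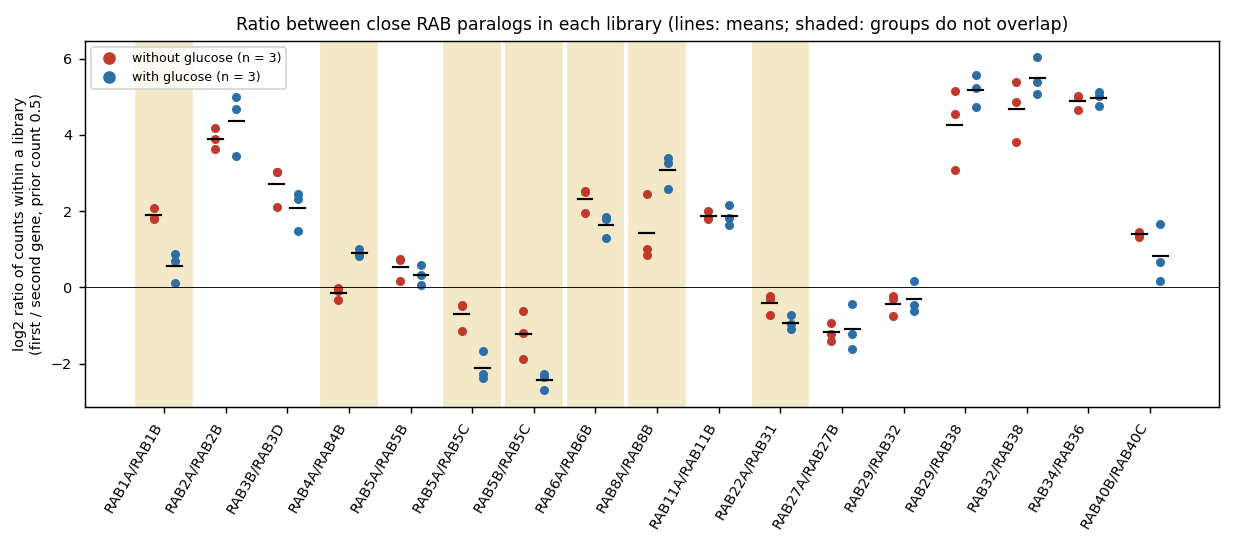
Log2 ratio of the counts of 2 close RAB paralogs within each library (prior count 0.5), for the 17 pairs with both genes tested. Red points are the 3 libraries without glucose and blue points the 3 with glucose, lines are means and shading marks the 7 pairs whose groups do not overlap. The RAB5A/RAB5C and RAB1A/RAB1B ratios sit higher without glucose and the RAB8A/RAB8B and RAB4A/RAB4B ratios lower.

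No lysosomal RAB passed the test. The group serves late endosomes, lysosomes and related organelles, and 7 of its 9 genes were tested. By edgeR's quasi-likelihood test 0 of the 7 passed in either direction, against 22.3% of all genes tested, 1 had an unadjusted p under 0.05, and DESeq2 also called 0. The 7 log2 fold changes all lay above 0, as did 51.5% of those of all genes tested, and ran from 0.08 for RAB12, which directs receptors to degradation, to 1.30 for RAB38, which acts in melanosome-type organelles. That of RAB12 was below 0 without glucose-free replicate 3 or replicate 1 with glucose. RAB38 had 2.37, 1.76 and 5.89 CPM without glucose and 0.848, 1.73 and 1.41 CPM with glucose, so replicate 3 without glucose lay far above the rest (log2 fold change 1.30 ± 0.54, edgeR adjusted p = 0.0988). Without that library the log2 fold change was 0.59 and the adjusted p 0.525. RAB7A, the main RAB of fusion with lysosomes, had 92.3, 104 and 116 CPM without glucose and 108, 88.6 and 94.2 CPM with glucose, with overlap (edgeR adjusted p = 0.743). The lysosomal median was 0.29. Summed lysosomal RAB transcripts came to 271, 305 and 324 CPM without glucose, against 254, 270 and 254 CPM with glucose. Each library without glucose was above each with glucose, but the nearest were almost level, at 271 and 270 CPM.

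Of the 8 other RABs tested, RAB39B was the 1 that passed, and 0 fell, or 12.5% and 0%, against 11.6% and 10.7% of all genes tested. In this group 6 had an unadjusted p under 0.05 with a positive sign and 0 with a negative one, against 19.4% and 17.1% of all genes tested. DESeq2 called 1 higher and 0 lower. Their log2 fold changes ran from 0.06 to 3.37 with a median of 0.64, all above 0, except that RAB40C had a value below 0 with library totals as scaling and without glucose-free replicate 1 or replicate 2 with glucose. RAB18, which sits on lipid droplets and the endoplasmic reticulum, had 56.1, 66.6 and 72.6 CPM without glucose and 43.1, 42.9 and 47.8 CPM with glucose (log2 fold change 0.55 ± 0.20, edgeR adjusted p = 0.0625). RAB40B, part of a ubiquitin ligase, had 17.4, 13.9 and 13.5 CPM without glucose and 7.91, 11.0 and 9.29 CPM with glucose (log2 fold change 0.66 ± 0.24, edgeR adjusted p = 0.0646). Neither passed, although their groups did not overlap.

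The ciliary RABs RAB23, a brake on Hedgehog signaling, and RAB28 were likewise without overlap and did not pass. RAB23 had 7.59, 9.34 and 7.15 CPM without glucose and 5.79, 3.84 and 5.21 CPM with glucose (log2 fold change 0.70 ± 0.28, edgeR adjusted p = 0.0918). RAB28 had 8.82, 10.5 and 10.7 CPM without glucose and 5.65, 7.78 and 6.05 CPM with glucose (log2 fold change 0.62 ± 0.25, edgeR adjusted p = 0.0982). RAB42 had 5.31, 1.07 and 2.80 CPM without glucose and 1.98, 0.480 and 0.704 CPM with glucose, a wide spread in both groups (log2 fold change 1.61 ± 0.67, edgeR adjusted p = 0.104). It passed without glucose-free replicate 2 (edgeR adjusted p = 0.0439) or replicate 1 with glucose (0.0458). RAB42 did not pass without any other single library (edgeR adjusted p from 0.180 to 0.401). Without glucose-free replicate 1 its log2 fold change was 0.96. RAB13, which acts at tight junctions, had 436, 307 and 455 CPM without glucose and 349, 347 and 376 CPM with glucose, with overlap (edgeR adjusted p = 0.609). Summed transcripts of the other RABs came to 566, 453 and 602 CPM without glucose and 424, 421 and 454 CPM with glucose, with overlap.

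The other 14 members had too few counts to test. RAB3C, RAB6C, RAB19, RAB40A and RAB41 had 0 counts in all 6 libraries, below the floor of 3 counts. RAB6D, RAB44, RAB43, RAB25, RAB3A, RAB17, RAB9B, RAB39A and RAB33A had 1 to 38 counts over the 6 libraries. RAB17, a RAB of polarized epithelia, had 0 counts in each library without glucose, against 11, 0 and 8 counts with glucose. Set against a floor of 3 counts over the group without glucose, that is 7.43-fold lower without glucose. The floor covers counting error in the group at 0 only. The 19 counts with glucose were taken as exact, so the value is not a lower bound, and replicate 2 with glucose was also at 0. RAB43 overlaps the read-through gene ISY1-RAB43 on the same strand, which itself had 0 counts, so the count of RAB43 is uncertain.

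Genes that act on RABs were described from a list of 145 names by role, of which 136 were tested. Of these 22 rose and 3 fell, or 16.2% and 2.21%, against 11.6% and 10.7% of all genes tested. Their median log2 fold change was 0.15, and 12 were higher without glucose-free replicate 1 or without replicate 2 with glucose, while 5 were lower without replicate 1 with glucose. CHM, the escort that presents new RABs for lipid attachment, had 49.6, 59.8 and 43.6 CPM without glucose, against 19.8, 30.3 and 27.4 CPM with glucose (log2 fold change 0.98 ± 0.22, edgeR adjusted p = 0.00819). RABGGTB, the catalytic subunit of the enzyme that adds the lipid, had 26.2, 35.4 and 32.9 CPM without glucose, against 21.3, 12.6 and 15.1 CPM with glucose (log2 fold change 0.96 ± 0.24, edgeR adjusted p = 0.0133). RABAC1, a membrane protein that binds prenylated RABs, had 114, 125 and 133 CPM without glucose, against 83.0, 55.0 and 63.3 CPM with glucose (log2 fold change 0.89 ± 0.21, edgeR adjusted p = 0.0105). The groups did not overlap for any of these 3 genes.

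In all, 4 of the 8 genes of escort, lipid attachment and recycling rose and 0 fell, against 11.6% and 10.7% of all genes tested. The numbers were the same in DESeq2, against 13.0% and 13.3% of all genes. They were also the same at an unadjusted p under 0.05, against 19.4% and 17.1%, from the same genes and libraries. RABGGTA, the partner subunit of RABGGTB, CHML, the second escort, and GDI2 did not pass, with log2 fold changes of −0.16, 0.17 and −0.35. The RABGGTB call was lost without replicate 2 or 3 with glucose (edgeR adjusted p = 0.0651 and 0.0572), and that of RABAC1 without replicate 2 with glucose (0.0597).

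Among exchange factors 6 of 46 rose and 0 fell, or 13.0% and 0%, against 11.6% and 10.7% of all genes tested. DESeq2 called 6 and 0, against 13.0% and 13.3% of all genes. At an unadjusted p under 0.05 the numbers were 12 and 2, against 19.4% and 17.1% of all genes. DENND1B, an exchange factor for RAB35, had 22.1, 21.5 and 23.3 CPM without glucose, against 9.75, 9.89 and 13.4 CPM with glucose (log2 fold change 1.01 ± 0.22, edgeR adjusted p = 0.00671). RAB3GAP2, of the complex that activates RAB18, rose by 0.95 ± 0.26 on the log2 scale, a call lost without glucose-free replicate 1 (edgeR adjusted p = 0.0825) or replicate 2 with glucose (0.0876). TRAPPC6A, of the TRAPP complexes that activate RAB1 and RAB11, rose by 0.76 ± 0.22 on the log2 scale, and kept the call without glucose-free replicate 3 or replicate 1 with glucose, while the other 4 leave-outs gave edgeR adjusted p-values from 0.0532 to 0.107.

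Of 35 GTPase-activating proteins 3 rose and 0 fell (DESeq2 called 3 and 1; at an unadjusted p under 0.05 the numbers were 4 and 3, against 19.4% and 17.1% of all genes), a share of 8.57%, against 11.6% of all genes for the same direction. TBC1D8B had 14.9, 10.4 and 16.1 CPM without glucose, against 5.37, 5.57 and 5.28 CPM with glucose (log2 fold change 1.35 ± 0.26, edgeR adjusted p = 0.00326). EVI5, which acts on RAB11, and TBC1D23, an adaptor at the Golgi, rose by 0.86 ± 0.20 and 0.90 ± 0.27 on the log2 scale. TBC1D23 was lost without glucose-free replicate 1 or 2 (edgeR adjusted p = 0.0995 and 0.0686) and without replicate 1 or 3 with glucose (0.0626 and 0.0536). None of the 4 kinases and phosphatase (LRRK1, LRRK2, TBK1, PPM1H) passed with edgeR or DESeq2, and 2 had an unadjusted p under 0.05.

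**Figure D4:**
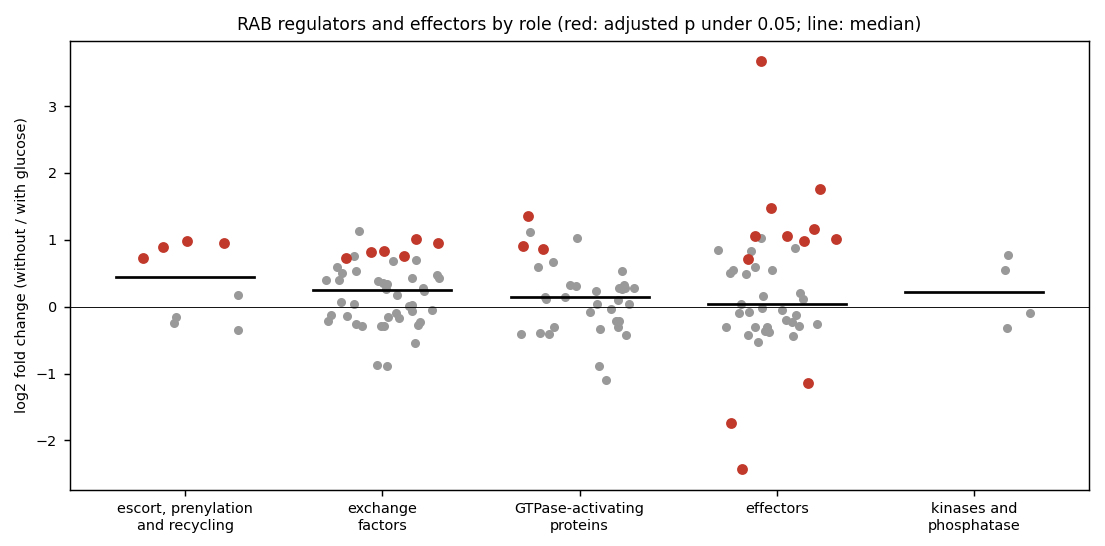
Log2 fold change (without over with glucose) of the 136 RAB regulators and effectors tested, in columns by role, with a line at each median; points are genes, spread sideways for legibility, and red marks an edgeR adjusted p under 0.05. The 3 red points below 0 are effectors, with values from −2.43 to −1.15.

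Effectors moved in both directions, with 9 of 43 higher and 3 lower, or 20.9% and 6.98%, against 11.6% and 10.7% of all genes tested. DESeq2 called 10 and 3, against 13.0% and 13.3% of all genes. At an unadjusted p under 0.05 the numbers were 13 and 3, against 19.4% and 17.1%. SYTL2, which binds RAB27 and docks granules at the plasma membrane, had 60.1, 37.7 and 48.8 CPM without glucose, against 17.8, 17.4 and 17.5 CPM with glucose. The libraries with glucose were nearly equal and all lay far below (log2 fold change 1.47 ± 0.22, edgeR adjusted p = 6.92e-04). SYTL5, of the same family, had 1.14, 0.918 and 0.516 CPM without glucose, against 3.39, 3.27 and 6.97 CPM with glucose (log2 fold change −2.43 ± 0.49, edgeR adjusted p = 0.00434). MICALL1, a scaffold of RAB8 and RAB35 on recycling tubules, had 70.6, 44.8 and 43.2 CPM without glucose, against 21.6, 27.3 and 21.9 CPM with glucose (log2 fold change 1.16 ± 0.24, edgeR adjusted p = 0.00451).

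The remaining SYTL genes and other effectors of RAB27 on the list, chosen after their values were seen, gave mixed results. SYTL4 fell, with 1.80, 1.99 and 4.35 CPM without glucose, against 5.37, 10.8 and 11.2 CPM with glucose (log2 fold change −1.74 ± 0.40, edgeR adjusted p = 0.00887). SYTL1 rose, with 2.09, 0.842 and 1.10 CPM without glucose, against 0, 0.192 and 0.0704 CPM with glucose (edgeR adjusted p = 0.0121), from 48 counts without glucose and 3 with glucose. RPH3AL, which also binds RAB27, rose, with 20.8, 25.2 and 23.4 CPM without glucose, against 9.33, 13.5 and 12.0 CPM with glucose (log2 fold change 0.98 ± 0.22, edgeR adjusted p = 0.00800). SYTL3 overlapped between the groups and did not pass (log2 fold change 1.03 ± 0.83, edgeR adjusted p = 0.399), nor did UNC13D, EXPH5 and MLPH (edgeR adjusted p = 0.178, 0.427 and 0.873). RAB11FIP3, a RAB11 effector that is not of this family, was the other effector that fell (log2 fold change −1.15 ± 0.34, edgeR adjusted p = 0.0300). RAB27A and RAB27B themselves did not pass, and their log2 ratio overlapped between the groups (difference −0.09, exact permutation p = 0.8).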

How the data were processed

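Per the labels' protocols, first strands carried a sample barcode on the oligo-dT primer, were pooled by an actin qPCR value and ended as strand-specific, PCR-amplified libraries. Molecular identifiers are not mentioned, so intervals and floors cover counting error only. The authors deposited raw counts of reads per Entrez gene, made with STAR and HTSeq on hg19 per the submitters' processing notes. Annotation, versions and the counting's strand setting: not given in the sources used here. The 5 HTSeq summary lines stayed out of library sizes; 18.4% to 22.2% of reads were multi-mapping and not counted, so near-identical copies (RAB6C and RAB6D beside RAB6A) are uncertain.

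Symbols for 19178 of 19240 genes came from RefSeq, GRCh38.p14, which was also used for the start windows; overlapping genes came from GENCODE, and no coordinates were converted. edgeR 4.0.16 (R 4.3.3) fitted all 6 libraries with TMM scaling, filterByExpr and a two-sided quasi-likelihood F test without covariates, Benjamini-Hochberg adjusted over 11886 genes; an adjusted p under 0.05 passed. The SE is the log2 fold change over the square root of its F statistic, and is approximate. Ratios of paralogs used a prior count of 0.5 and the exact permutation test. Alternatives were 2 other scalings, DESeq2 1.42.0, 2 other filters, a replicate block and leaving out each library. The fit was tested on simulated data.

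All RAB members could be named, with values for those that passed, their paralogs and the 12 next by p, and for the 3 regulators of each role with the smallest p; other genes were chosen after their values were seen. Members and lists were chosen with earlier results of these data known. Libraries of a group differed by more than sampling noise (chi-square per degree of freedom 22.1 to 57.3), and none were merged. Some genes of the marker and regulator lists are not reported here by name.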

Additional observations from a re-analysis of the deposited data

How the results depend on the processing

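Among all genes 860 to 1292 were higher and 781 to 1232 lower when 1 library was left out. Of the RAB genes, 2 to 4 were then higher and 2 to 3 lower: 0 to 1 and 1 to 2 of the secretory, 1 and 0 to 1 of the endosomal, with 1 to 2 of the other members higher. RAB genes higher numbered 3 with RLE scaling, with library totals as scaling, with no filter and with the replicate block, secretory and endosomal 1 each in each. Under the replicate block 2 RAB genes were lower, 1 secretory and 1 endosomal, and 4 endosomal genes were lower in DESeq2. RLE and total scaling and the absence of a filter each lost RAB1A and RAB5A and gained 1 call (RAB35 with either scaling, RAB17 without a filter), and the block lost these, RAB1B and RAB15; the cause was not tested. The block is given as a check only, since the labels state no pairing. Deviations of same-numbered libraries correlated at −0.265, −0.121 and 0.0361, which shows no likeness by number. With 3 libraries per group these values cannot exclude a pairing. DESeq2 and a mean of at least 20 counts kept all 9 calls. None of the 9 calls changed sign under any alternative. Of regulators, 12 to 19 were higher and 2 to 5 lower on leaving out 1 library, against 22 and 3 with all. With a prior count of 2 the paralog differences moved by less than the spread between libraries. At the depth of these libraries 14 RAB genes could not be tested, and RAB20, RAB38 and RAB42 rest on few counts.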
